A study of Homo sapiens with 12 samples.

Results

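The data set out here are the regions of histone H3 dimethylated at lysine 4 (H3K4me2) and of histone H3 trimethylated at the same lysine (H3K4me3) at the ends of protein-coding genes in KBM-7, a human line that was established from chronic myeloid leukaemia cells and has 1 copy of most chromosomes. Intervals called for each mark were joined into regions, and a gene was counted as carrying a mark when a region overlapped the 1 kb on either side of either annotated end by at least 1 bp. Of 19974 protein-coding genes, 13537 carried at least 1 of the marks: 10245 carried both, 3284 carried H3K4me2 without H3K4me3, and 8 carried H3K4me3 without H3K4me2. The remaining 6437 genes carried neither. Each mark came from 1 library of untreated, formaldehyde-crosslinked cells, without replicates. The other libraries are H3K4me1, H3K9ac, H3K27ac, H3K27me3, H3K36me3, H3K79me2, H4K16ac and 3 inputs, and the intervals of H3K36me3 and H4K16ac are identical, so they were used as 1 set. By the labels H3K4me3 shares its input with H3K9ac and H3K79me2, and H3K4me2 with H3K27ac, H3K4me1, H3K36me3 and H4K16ac. The deposited file holds called intervals only, with no read count or score. No difference below could therefore be set against replicate error, no p-value is given, and the depth of the libraries is unknown. The 95% intervals (Wilson for a share, order statistics for a median) cover counting error over genes or regions only.

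Lysine 4 of histone H3 is methylated stepwise by the SET1/MLL family of methyltransferases, and KDM1 and KDM5 demethylases remove the methyl groups. Trimethylation is best known from the nucleosomes just after the start of transcribed genes, and monomethylation (H3K4me1) from enhancers. Dimethylation lies between these states: it flanks trimethylated nucleosomes, and it is also found on its own at regulatory sequence of genes that are poised or lineage-restricted. Where CpG dinucleotides are dense, CXXC-domain proteins recruit methyltransferase complexes, and Polycomb complexes, which lay down H3K27me3, occupy CpG-dense promoters of silent developmental genes.

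The classes differed in the sequence around the start of transcription, and 7 promoters show the range. Each line gives the 250 bases before the annotated start, 5′ to 3′ along the gene, from RefSeq on GRCh38.p14, with every CpG in capitals. They were taken from the 188 named genes whose printed window lies in no other gene. SOX12 and KRT8 carried both marks and had the most and the fewest CpGs among these genes of that class, and UBE2J1 lay nearest the median of the class. GPR153 and TNFSF13B carried H3K4me2 alone, again with the most and the fewest. Among the 188, SYN2 lay nearest the median of H3K4me2-only genes with H3K27me3 and no H3K9ac, and GPR132 nearest that of H3K4me2-only genes with H3K4me1 and neither of those marks.
SOX12 (chr20:325302-325551, plus strand): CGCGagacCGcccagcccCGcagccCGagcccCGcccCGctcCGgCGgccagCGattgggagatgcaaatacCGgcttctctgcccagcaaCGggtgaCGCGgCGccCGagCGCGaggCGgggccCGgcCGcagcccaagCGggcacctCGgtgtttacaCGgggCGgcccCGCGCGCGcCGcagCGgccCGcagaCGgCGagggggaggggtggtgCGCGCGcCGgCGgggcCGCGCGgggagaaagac
UBE2J1 (chr6:89352723-89352972, minus strand): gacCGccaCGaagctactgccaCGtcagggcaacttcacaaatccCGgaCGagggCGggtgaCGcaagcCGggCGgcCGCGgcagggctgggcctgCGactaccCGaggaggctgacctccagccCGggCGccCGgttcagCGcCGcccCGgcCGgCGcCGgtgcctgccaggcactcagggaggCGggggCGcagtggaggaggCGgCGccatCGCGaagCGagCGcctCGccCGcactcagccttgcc
KRT8 (chr12:52926470-52926719, minus strand): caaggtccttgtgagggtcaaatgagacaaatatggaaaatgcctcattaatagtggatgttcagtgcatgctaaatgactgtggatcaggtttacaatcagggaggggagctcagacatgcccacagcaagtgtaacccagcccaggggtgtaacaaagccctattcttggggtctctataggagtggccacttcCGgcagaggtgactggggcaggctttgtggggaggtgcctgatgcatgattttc
GPR153 (chr1:6261099-6261348, minus strand): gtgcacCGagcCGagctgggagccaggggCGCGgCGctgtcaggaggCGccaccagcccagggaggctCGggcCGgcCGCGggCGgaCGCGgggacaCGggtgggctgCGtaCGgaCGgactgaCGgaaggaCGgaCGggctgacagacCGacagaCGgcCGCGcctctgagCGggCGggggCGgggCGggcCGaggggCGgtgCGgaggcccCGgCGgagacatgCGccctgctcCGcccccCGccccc
SYN2 (chr3:12004138-12004387, plus strand): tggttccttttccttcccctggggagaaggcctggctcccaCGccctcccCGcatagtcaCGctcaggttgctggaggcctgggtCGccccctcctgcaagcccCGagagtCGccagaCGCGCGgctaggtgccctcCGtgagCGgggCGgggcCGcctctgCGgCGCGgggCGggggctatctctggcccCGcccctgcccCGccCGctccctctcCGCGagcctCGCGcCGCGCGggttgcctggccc
GPR132 (chr14:105065431-105065680, minus strand): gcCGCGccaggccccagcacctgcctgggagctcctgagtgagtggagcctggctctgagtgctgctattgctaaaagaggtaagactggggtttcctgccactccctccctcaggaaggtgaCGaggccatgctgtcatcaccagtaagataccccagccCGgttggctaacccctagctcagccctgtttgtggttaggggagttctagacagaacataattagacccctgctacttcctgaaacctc
TNFSF13B (chr13:108269379-108269628, plus strand): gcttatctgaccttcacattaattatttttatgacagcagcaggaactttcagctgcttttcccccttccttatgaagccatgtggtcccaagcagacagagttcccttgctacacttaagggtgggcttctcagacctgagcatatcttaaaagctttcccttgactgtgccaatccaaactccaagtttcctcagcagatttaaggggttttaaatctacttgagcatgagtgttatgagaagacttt

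Within 1 kb of its start, SOX12, a SOX transcription factor gene, had 1401 bp of H3K4me2 and 1052 bp of H3K4me3 over 42 CpGs in the 250 bases shown. UBE2J1, a ubiquitin-conjugating enzyme gene, had 1551 bp and 1779 bp over 32 CpGs. KRT8, a keratin gene, had 2001 bp and 1500 bp over 1 CpG. The next 4 genes had no H3K4me3 base there. GPR153, an orphan receptor gene, had 1653 bp of H3K4me2 over 36 CpGs, and SYN2, a synapsin gene, had 1200 bp over 27 CpGs. SYN2 had 10001 bp of H3K27me3 and 3169 bp of H3K4me1 within 5 kb of its ends. GPR132, a leukocyte receptor gene, had 1851 bp of H3K4me2 over 4 CpGs, with 8051 bp of H3K4me1 and 1930 bp of H3K27me3 within 5 kb. The sets these 2 genes stand for are defined by marks within 1 kb of an end. TNFSF13B, which encodes the B cell survival factor BAFF, had 1379 bp of H3K4me2 over no CpG. A CpG-dense and a CpG-poor start were thus found in either class.

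H3K4me3 at gene ends lay almost wholly among the genes with H3K4me2. H3K4me2 was called at 67.7% of all protein-coding genes and H3K4me3 at 51.3%. Both were called at 51.3%, H3K4me2 alone at 16.4%, H3K4me3 alone at 0.0401% and neither at 32.2%. Of the 10253 genes with H3K4me3, 99.92% (99.85 to 99.96) also had H3K4me2, whereas 24.3% (23.6 to 25) of the 13529 genes with H3K4me2 lacked H3K4me3. The share lacking H3K4me3 ran from 19.7% on chromosome 21 to 32.0% on chromosome 22. H3K4me2 had 50132 regions in all and H3K4me3 had 14803. When only the 14053 H3K4me2 regions of at least 1950 bp were kept, 7542 genes had both marks, 1310 had H3K4me2 alone and 2711 had H3K4me3 alone, so the small last class rests on the full H3K4me2 set. The share of H3K4me2 genes without H3K4me3 was 14.8% in that case, and 39.5% when regions narrower than each mark's median width were dropped. The part of depth or input in the nesting was not tested.

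The marks lay mostly at the start and not at the other end. Strand was known for 15812 genes, and 14895 of these were longer than 2 kb. Among such genes with both marks, H3K4me3 was at the start alone in 94.5% and H3K4me2 at the start alone in 84.8%, while 14.4% had H3K4me2 at both ends. Of H3K4me2-only genes, 78.9% (77.2 to 80.5) had it at the start alone, 11.3% (10.1 to 12.6) at the other end alone and 9.83% at both. H3K4me2 at the other end alone was found in 0.806% of the genes with both marks. Another protein-coding gene ended or began within 1 kb in 84 of the 271 H3K4me2-only genes marked at the other end alone (31.0%, 25.8 to 36.7) and in 19.9% (18.1 to 21.7) of those marked at the start alone. Over all protein-coding genes, of any length, the share was 28.6%, and over genes with both marks it was 40.2%.

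Around the start of genes with both marks, H3K4me2 formed 2 shoulders with a dip between them, and H3K4me3 was high over the dip. H3K4me2 covered 87.8% of bases in the 100 bp bin centred 450 bp before the start, 56.7% at 50 bp after it and 92.3% at 950 bp after it, over 8495 genes. H3K4me3 covered 31.8%, 71.5% and 52.2% of bases in the same bins, with 85.8% at 350 bp after the start. H3K4me1 was near its lowest where H3K4me3 was high, at 0.675% of bases 150 bp after the start, and reached 17.6% at 1550 bp, where H3K4me2 still covered 79.9%. Among the 2491 H3K4me2-only genes the mark formed a single summit without a dip, at 68.5% of bases 50 bp after the start and 69.3% at 250 bp. H3K27me3 covered 40.5% of bases at 50 bp after the start of those genes and 2.61% in genes with both marks.

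**Figure D1:**
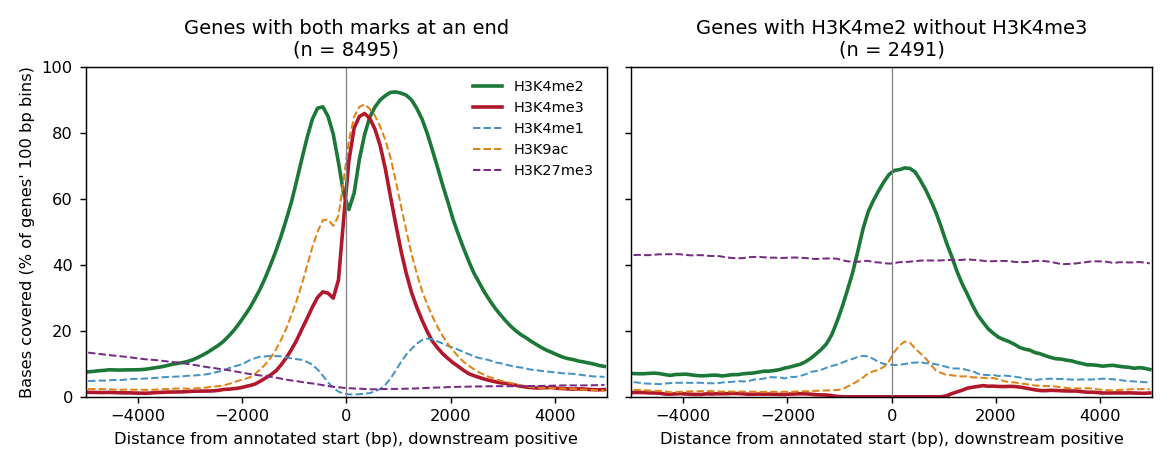
Share of bases covered by each mark (vertical axis, percent) in 100 bp bins against the distance from the annotated start (horizontal axis, bp), for genes with both marks on the left and with H3K4me2 alone on the right. H3K4me2 dips to 56.7% at 50 bp after the start on the left, where H3K4me3 covers 71.5%, and has 1 summit of 69.3% on the right. H3K4me3 is 0 within 1 kb of the start on the right because that defines the class.

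H3K4me2 reached beyond H3K4me3 on at least 1 side of nearly every H3K4me3 region at a gene end. Of 10121 such regions, with a median width of 1050 bp, 10057 (99.4%) overlapped H3K4me2. H3K4me2 went past both edges of 61% (60.1 to 62.0) and past 1 edge of 38.2% (37.2 to 39.1), and past neither edge of 19 overlapping regions. The share past both edges was 38.15% with the 14053 widest H3K4me2 regions and 87.5% with gaps of up to 500 bp joined. Measured from the edges of H3K4me3 to the outermost edges of the H3K4me2 regions that overlap it, the extent summed over both sides had a median of 1500 bp (1500 to 1650, middle 50% 900 to 2250). On the longer side it was 1200 bp and on the shorter side 450 bp. H3K4me2 covered 84.2% of the H3K4me3 bases, and 49.3% of the H3K4me3 regions lay wholly inside H3K4me2. Called edges fall on a grid of 150 bp, which limits the precision of each extent.

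The extent was longer into the gene than before it. In the 7089 regions where the starts nearby point 1 way, H3K4me2 ended 1050 bp beyond H3K4me3 downstream and 600 bp beyond it upstream (medians). Downstream was the longer side in 68.2% (67.1 to 69.3), upstream in 26.7% (25.7 to 27.7), and the sides were equal in 5.08%. H3K4me2 passed the downstream edge of 94.2% of the regions and the upstream edge of 65.4%. At the upstream edge the order was turned round in 29.7% (28.7 to 30.8), with H3K4me3 reaching farther than the H3K4me2 that overlaps it. That was so at the downstream edge of 3.09%. A separate H3K4me2 region farther out does not count in these values. In genes with both marks H3K4me2 covered 87.8% of bases 450 bp before the start and H3K4me3 31.8%. With gaps of up to 500 bp joined, H3K4me2 passed both edges of 87.5% of all H3K4me3 regions at gene ends. The part of separate regions in the turned order was not tested. The upstream values had 2 groupings: 10.0% of the regions had H3K4me3 going 150 bp past H3K4me2, and 11.6% had H3K4me2 going 750 bp past H3K4me3. At 1301 regions with starts in both directions the summed extent was again 1500 bp.

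**Figure D2:**
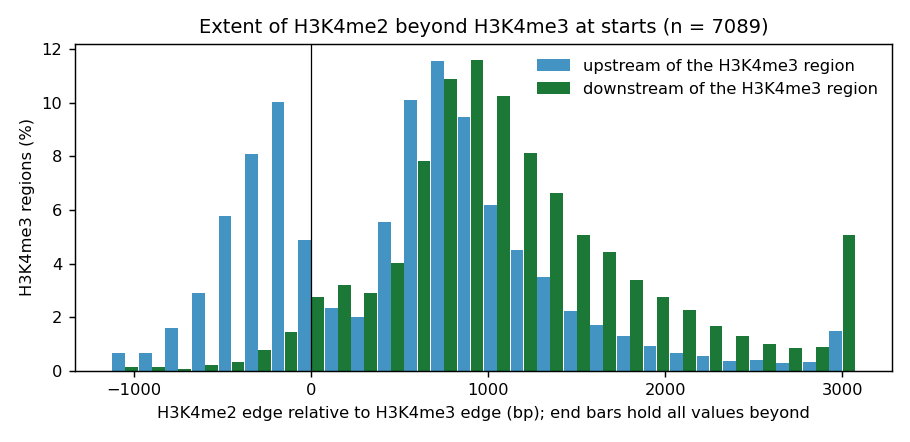
Distance from the H3K4me3 edge to the outermost edge of overlapping H3K4me2 regions (horizontal axis, bp in steps of 150, positive where H3K4me2 reaches farther) against the share of 7089 H3K4me3 regions (vertical axis, percent), upstream and downstream of the start. The downstream bars lie almost all above 0, and the upstream bars have a grouping below 0 as well as above it.

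The width of H3K4me3 moved with how H3K4me2 lay over it and hardly with how far H3K4me2 reached. H3K4me3 regions of 300 bp lay wholly inside H3K4me2 in 94.2% (92.0 to 95.8), those of 1050 to 1500 bp in 36.2% (34.6 to 37.9) and those of 2550 bp or more in 18.2% (15.2 to 21.6). The share that overlapped 2 or more separate H3K4me2 regions was 0%, 23.1% and 56.8% in the same order. The 0% was fixed in advance, because on a grid of 150 bp a region of 300 bp cannot overlap 2 separate regions. A narrow region also fits wholly inside H3K4me2 more easily, and the part of this in either trend was not tested. The median summed extent was 1800, 1500 and 1950 bp. Wide H3K4me3 regions thus often had a stretch free of H3K4me2 inside them, with H3K4me2 on either side. Regions overlapping H3K27ac, a mark of active promoters and enhancers, had a summed extent of 2250 bp (2250 to 2400, n = 851) against 1500 bp (1500 to 1500, n = 9206) in the others, and their H3K4me3 was wider as well, 1500 against 1050 bp.

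Sequence under H3K4me2 beside H3K4me3 carried more H3K4me1 and less H3K9ac than the H3K4me3 sequence itself. Of the flanking bases, 7.02% lay under H3K4me3. H3K4me1 covered 25.3% of the 18049650 flanking bases and 3.93% of the 12187950 H3K4me3 bases. H3K9ac, an acetylation of active promoters, covered 27.8% of the flanks and 88.8% of the H3K4me3 bases. H3K79me2, which marks the first part of transcribed genes, covered 47.6% and 53.5%. H3K27me3 covered 2.59% and 1.34%.

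The longest extent lay at CD69, an early activation antigen of lymphocytes, where H3K4me2 reached 3300 bp past one edge and 27600 bp past the other edge of a region of 8700 bp (chr12:9752851-9761550), 30900 bp in sum. A second region of 900 bp there had 27300 bp, up to the same H3K4me2 edge. ZMYND8, a chromatin reader gene, had 15000 bp around a region of 300 bp and 13800 bp around one of 1500 bp. CSK, a kinase that holds SRC kinases in check, had 14100 bp, ARRB1, an arrestin gene, 13800 bp, SLC7A5, an amino acid transporter gene, 12450 bp, and ZEB2, a zinc finger transcription factor gene, 12150 bp. At the other end of the ranking H3K4me3 reached farther, summed over both sides, than the H3K4me2 that overlaps it. The summed extent was -2700 bp at EIF4EBP1, a translation repressor gene, -2400 bp at RAD21, a cohesin subunit gene, -2100 bp at PTMA, -1650 bp at ETFA and -1050 bp at SRRM2.

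Of the 10 regions with the lowest extent, 4 lay on chromosome 8 and 1 in the 61 to 90 Mb part of chromosome 15, the stretches known to be present in more than 1 copy in this line. These stretches held 4.86% of the H3K4me3 regions at gene ends. H3K4me3 regions there had a median width of 1950 bp (1800 to 2100, n = 490) against 1050 bp (1050 to 1050, n = 9567) elsewhere, among those that overlap H3K4me2. H3K4me2 passed both edges of 83.7% (80.2 to 86.7) of them against 59.8% (58.9 to 60.8) elsewhere, and the summed extent was 1800 against 1500 bp. Copy number and genomic stretch cannot be told apart in 1 line. The share of H3K4me2 genes without H3K4me3 was 24.4% with these stretches left out.

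H3K4me2-only genes had H3K9ac, H3K79me2, H3K27ac and the set of H3K36me3 and H4K16ac less often than genes with both marks, and H3K27me3 more often. H3K9ac was found at 29.8% (28.3 to 31.4) of them and at 97.7% (97.4 to 98.0) of genes with both marks, against 55.1% of all genes. H3K79me2 was found at 4.84% against 68.0%, with 35.9% of all genes. The set of H3K36me3 and H4K16ac was found at 16.1% against 56.0%, with 34.8% of all genes. H3K27ac was found at 3.38% against 11.4%, with 6.42% of all genes. H3K27me3 went the other way, at 52.3% (50.6 to 54.0) against 9.98% (9.41 to 10.6), with 32.5% of all genes. When regions narrower than the mark's median width were dropped, H3K27me3 was at 30.45% of H3K4me2-only genes, and with the 14053 widest H3K4me2 regions H3K9ac was at 47.5%. Genes with neither H3K4 mark had H3K27me3 at 58.4%, so the H3K4me2-only genes were close to unmarked genes in this respect. H3K4me1 was found at 36.1% (34.5 to 37.8) of H3K4me2-only genes, 31.9% (31.0 to 32.8) of genes with both marks and 2.35% of genes with neither, with 23.1% of all genes. That small difference turned round with the window: within 2.5 kb H3K4me1 was at 42.6% of H3K4me2-only genes and 59.9% of genes with both. It was also lost, at 31.4% against 31.9%, when genes with H3K4me3 in the body or within 5 kb were left out of the H3K4me2-only class.

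**Figure D3:**
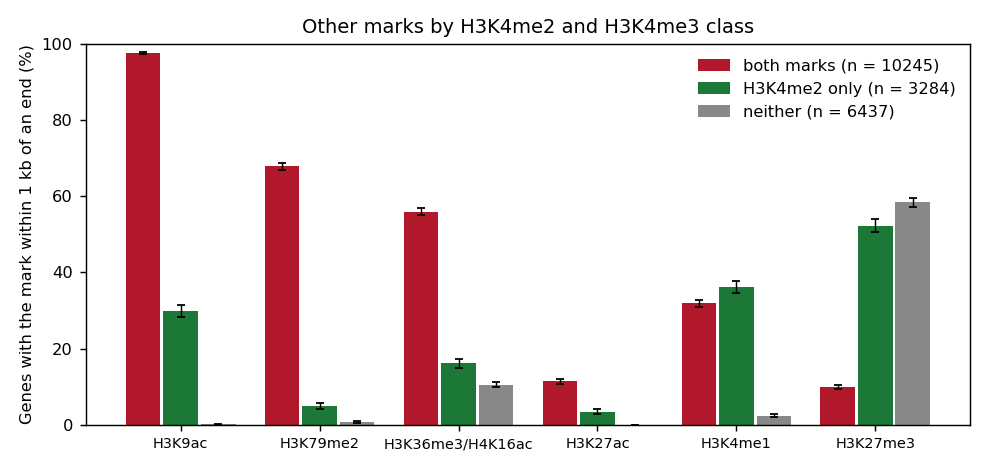
Share of genes with each other mark within 1 kb of an end (vertical axis, percent, bars start at 0) by class, with Wilson 95% intervals that cover counting error over genes. H3K9ac is at 97.7% of genes with both marks and 29.8% of H3K4me2-only genes, and H3K27me3 at 9.98% and 52.3%.

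By these marks the 3284 H3K4me2-only genes fell into 3 main sets. H3K27me3 without H3K9ac was found at 1449 genes (44.1%), with a median of 1800 bp of H3K4me2 within 5 kb of the ends. H3K9ac without H3K27me3 was found at 712 genes (21.7%), with 3450 bp. H3K4me1 with neither of these was found at 504 genes (15.3%), with 3150 bp. Another 268 genes (8.16%) had both H3K9ac and H3K27me3, and 351 (10.7%) had none of the 3. Across the class the median was 2250 bp (2250 to 2323), against 3900 bp (3900 to 4050) in genes with both marks. H3K4me3 lay in the body or within 5 kb of 11.7% of the H3K27me3 set, 35.4% of the H3K9ac set and 36.1% of the H3K4me1 set.

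The H3K4me1 set had CpG-poor starts and the H3K27me3 set did not. The ratio of observed to expected CpG in the 300 bases from 250 before to 50 after the start had a median of 0.86 (0.86 to 0.87) in genes with both marks, 0.69 (0.67 to 0.71) in H3K4me2-only genes and 0.32 (0.31 to 0.33) in genes with neither, and 0.76 over all 15812 genes with a promoter in RefSeq. Among H3K4me2-only genes it was 0.74 (0.72 to 0.75) with H3K27me3 and no H3K9ac, and 0.71 (0.68 to 0.74) with H3K9ac and no H3K27me3. With H3K4me1 and neither of these it was 0.30 (0.27 to 0.33). H3K4me2 lay at the start itself in 89.55%, 94.7% and 78.4% of these sets in the same order, so some starts measured did not carry it. A ratio below 0.4 was found in 62.9% (57.9 to 67.7) of the last set and in 21.8% (19.5 to 24.4) of the H3K27me3 set, against 5.05% of genes with both marks. In these 300 bases SYN2 and GPR132, whose 250 bases before the start are printed above, have 31 and 7 CpGs and ratios of 0.74 and 0.26. Short motifs were counted as well. TATAAA on either strand in the 50 bases before the start was found in 4.62% (3.86 to 5.51) of H3K4me2-only genes, 1.82% of genes with both marks and 9.42% of genes with neither. The H3K4me2-only share was near the 4.58% of all promoters. CCGGAAG on either strand in the 300 bases was found in 6.62% (5.71 to 7.67), 21.9% (21.1 to 22.8) and 4.25%, against 14.1% of all. CCGGAAG holds a CpG, so its count moves with CpG content, and TATAAA holds only A and T, so its count moves with base content. A match describes letters and not binding.

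**Figure D4:**
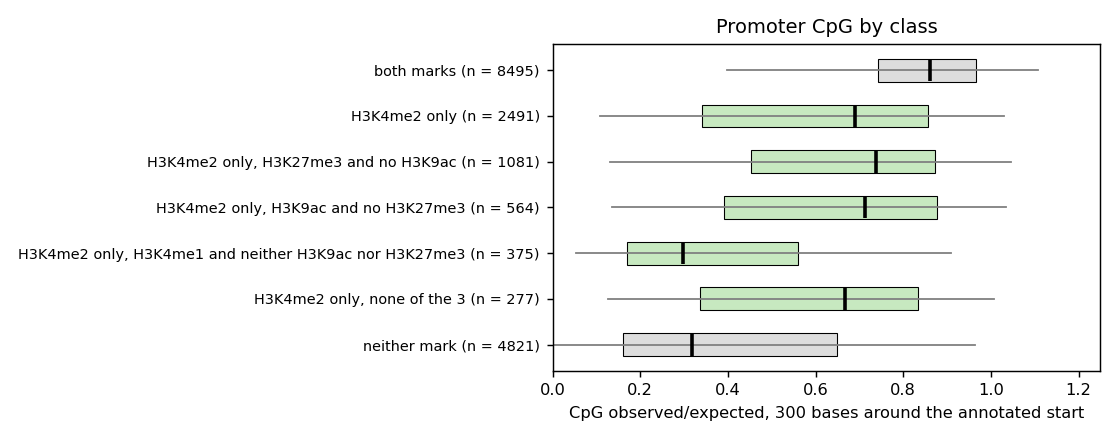
Ratio of observed to expected CpG (horizontal axis) in the 300 bases around the annotated start for each class and, in green, for sets of H3K4me2-only genes. The bar in each box is the median, the box holds the middle 50% of genes and the line the middle 90%. The set with H3K4me1 and neither H3K9ac nor H3K27me3 has a median of 0.30, near that of genes with neither H3K4me2 nor H3K4me3.

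Some genes entered the H3K4me2-only class although H3K4me3 lay nearby. Its nearest H3K4me3 region lay a median of 31856 bp away, against 85071 bp for genes with neither mark, and 40.5% of its genes had none within 50000 bp. H3K4me3 lay within 5 kb of an end of 17.4% and in the body of 13.2%, and in 1 or the other place for 764 genes (23.3%). At 256 of the 2491 genes with known strand (10.3%) H3K4me3 lay within 1 kb of another start that RefSeq lists for the gene. KDM2B and GPI below are among the 256. At the limit of the rule, 109 genes with H3K4me2 had the nearest H3K4me3 at 801 to 1000 bp and counted as having both, and 79 had it at 1001 to 1200 bp and counted as H3K4me2-only. Without genes that had H3K4me3 in the body or within 5 kb, 2520 genes remained, of which 59.4% had H3K27me3, 31.4% H3K4me1 and 26.8% H3K9ac.

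Genes of the cell's basic machinery carried both marks nearly throughout. Of 84 cytosolic ribosomal protein genes, 82 had both marks and RPL10L and RPL26L1, a pair of copies of other ribosomal genes, had neither. Both marks were at 73 of 77 mitochondrial ribosomal protein genes, 34 of 36 NADH dehydrogenase subunit genes, 35 of 39 proteasome genes, 29 of 30 cell cycle genes and 26 of 28 genes of glycolysis and core metabolism, against 51.3% of all genes. The exceptions with H3K4me2 alone were few. MRPL24, a mitochondrial ribosomal protein gene, had 3866 bp of H3K4me2 within 5 kb with 1166 bp of H3K4me3 beyond the 1 kb window, and MRPL45 had 900 bp. CCND1, which encodes cyclin D1, had 2400 bp of H3K4me2 and 17372 bp of H3K27me3 within 5 kb. CCND2 and CCND3 carried both H3K4 marks. GPI, a glycolytic enzyme gene, had 5268 bp of H3K4me2, with the nearest H3K4me3 at 2038 bp.

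The genes that write, erase and read H3K4 methylation were themselves mostly marked by both. Of 12 methyltransferase genes, 10 had both marks, against 51.3% of all genes, among them KMT2D with 9357 bp of H3K4me2 and 5400 bp of H3K4me3 within 5 kb, KMT2A with 7500 and 3150 bp, and SETD1A with 3150 and 1350 bp. PRDM9, which acts in meiosis, and SMYD1, a muscle gene, had neither mark. All 15 subunits of the methyltransferase complexes had both, from BOD1 with 2400 and 750 bp to HCFC1 with 9533 and 3600 bp. Of 9 demethylase and cofactor genes 8 had both, with KDM5B at 6930 and 2850 bp and KDM1A at 3000 and 3000 bp. KDM2B had 6122 bp of H3K4me2, with the nearest H3K4me3 1879 bp from an end. Of 19 reader genes 15 had both, SGF29 had H3K4me2 alone with 3790 bp, and RAG2, KDM4C and PHF8 had neither.

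Channel, receptor and matrix genes carried H3K4me2 without H3K4me3 more often, most of them with H3K27me3. Of 95 potassium channel genes 54 had H3K4me2, and 39 of these lacked H3K4me3 (72.2%, 59.1 to 82.4, against 24.3% of all H3K4me2 genes). H3K27me3 was at 32 of the 39, against 52.3% of all H3K4me2-only genes. KCNH2, which encodes the hERG channel, had 4650 bp of H3K4me2 and 4321 bp of H3K27me3 within 5 kb, with no H3K4me3 base there. Collagen genes had H3K4me2 in 20 of 44 and alone in 16 of the 20 (80.0%, 58.4 to 91.9), with H3K27me3 at 14. COL1A1, a chain of type I collagen, had 3450 bp of H3K4me2 and 9001 bp of H3K27me3. Glutamate and GABA receptor genes had H3K4me2 in 16 of 47 and alone in 11 of the 16 (68.8%, 44.4 to 85.8), all 11 with H3K27me3. GRIN2B, an NMDA receptor subunit gene, had 3900 bp of H3K4me2 and 10001 bp of H3K27me3. Of 390 olfactory receptor genes, 9 had H3K4me2 alone, 0 had both marks and 381 had neither.

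Developmental transcription factor genes were split between the classes. Of 56 in the list, 17 had both marks, 21 had H3K4me2 alone and 18 had neither, and H3K27me3 was at 18 of the 21. Of all genes, 51.3% had both marks, 16.4% H3K4me2 alone and 32.2% neither, 24.3% of all H3K4me2 genes lacked H3K4me3, and H3K27me3 was at 52.3% of these. The median H3K4me2 in those 21 was 1950 bp, against 2250 bp for the class. PAX2, a kidney and eye factor, had 5105 bp of H3K4me2 and 19002 bp of H3K27me3 within 5 kb. LHX2 had 3600 and 20002 bp. WT1, a factor often expressed in leukaemia, carried both, with 7500 bp of H3K4me2 and 3150 bp of H3K4me3. SOX genes had H3K4me2 in 12 of 19 and alone in 6 of the 12, all 6 with H3K27me3. Among the 6, SOX2 had 1350 bp of H3K4me2 and 12512 bp of H3K27me3. Forkhead genes had H3K4me2 in 31 of 45 and alone in 15 of the 31, with H3K27me3 at 11. HOX genes had H3K4me2 in 27 of 39 and alone in 18 of the 27 (66.7%, 47.8 to 81.4), with H3K27me3 at 14. HOXC6 had 9841 bp of H3K4me2 and 14436 bp of H3K27me3 without H3K4me3, while HOXA9, a factor of blood progenitors, had 12950 bp of H3K4me2 and 6737 bp of H3K4me3 and no H3K27me3. HOX genes overlap in their windows, so neighbours share regions.

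Several sets of immune cell genes carried H3K4me2 without H3K4me3, and the share of these with H3K4me1 differed from set to set. Of 14 granulocyte and monocyte genes with H3K4me2, 13 lacked H3K4me3 (92.9%, 68.5 to 98.7), against 24.3% of all H3K4me2 genes. H3K4me1 was at 12 of the 13, against 36.1% of all H3K4me2-only genes. MPO, the granule peroxidase of neutrophils, had 4650 bp of H3K4me2 and 6135 bp of H3K4me1 within 5 kb, and CYBB, the catalytic subunit of the phagocyte oxidase, had 4511 and 5261 bp. VCAN, a proteoglycan gene, was the exception with both marks, at 6000 bp of H3K4me2 and 2250 bp of H3K4me3. T and NK cell genes had H3K4me2 in 13 of 28 and alone in 12 of the 13, with H3K4me1 at 9. CD3E, a chain of the T cell receptor complex, had 5700 bp of H3K4me2 and 8378 bp of H3K4me1. CD4, which monocytes also express, had both marks, with 9573 bp of H3K4me2 and 2250 bp of H3K4me3. Chemokine and chemokine receptor genes had H3K4me2 in 19 of 59 and alone in 16 of the 19 (84.2%, 62.4 to 94.5), with H3K4me1 at 13. Interleukin and receptor genes had H3K4me2 in 36 of 70 and alone in 22 of the 36, with H3K4me1 at 15. IL1B, an inflammatory cytokine gene, had 8479 bp of H3K4me2 and 9079 bp of H3K4me1 and no H3K4me3. All 8 S100 genes with H3K4me2 alone had H3K4me1, and several are neighbours on chromosome 1. B cell genes had H3K4me2 in 12 of 24 and alone in 9 of the 12, with H3K4me1 at 5. TNF ligand and receptor genes had H3K4me2 in 21 of 32 and alone in 9 of the 21, with H3K4me1 at 4. C-type lectin and Siglec genes had H3K4me2 in 17 of 44 and alone in 11 of the 17, with H3K4me1 at 8 and H3K27me3 at 4. Of all H3K4me2-only genes, 52.3% had H3K27me3. All 6 killer and leukocyte immunoglobulin-like receptor genes with H3K4me2 lacked H3K4me3, with H3K27me3 at 5 and H3K4me1 at 4.

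Blood transcription factor genes were spread over the classes. Of 40, 22 had both marks, 12 had H3K4me2 alone and 6 had neither, against 51.3%, 16.4% and 32.2% of all genes. The 12 are 35.3% (21.5 to 52.1) of the list's H3K4me2 genes, an interval that holds the 24.3% of all H3K4me2 genes. TAL1 had 11362 bp of H3K4me2 and 3900 bp of H3K4me3, NFE2 11415 and 1500 bp, and MEIS1 11275 and 4800 bp, and these factors act in stem cells and the erythroid and megakaryocytic lines. LMO2, a partner of TAL1, had 8926 bp of H3K4me2 within 5 kb and its nearest H3K4me3 at 8125 bp. CEBPE, a late granulocyte factor, had 4795 bp with 5250 bp of H3K4me1. IRF4, a lymphoid factor, had 4500 bp of H3K4me2 and 10001 bp of H3K27me3 within 5 kb. H3K27me3 was at 8 of the 12, against 52.3% of all H3K4me2-only genes. Of 25 progenitor surface and cytokine receptor genes, 9 had both marks, among them CD34 with 7748 and 4050 bp, and 11 had H3K4me2 alone. The latter included EPOR, the erythropoietin receptor gene, with 8700 bp, IL6R with 6901 bp and KIT, a stem cell factor receptor gene, with 3000 bp. Erythroid and megakaryocytic genes had both marks in 2, TFRC and ANK1, H3K4me2 alone in 8 and neither in 18, the globin genes HBA1, HBA2, HBB, HBG1 and HBG2 among the last.

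The remaining lists are read against 51.3% of all genes with both marks, 32.2% with neither, 24.3% of all H3K4me2 genes without H3K4me3, and H3K27me3 at 52.3% and H3K9ac at 29.8% of those. Germline genes had H3K4me2 in 8 of 28 and alone in 6 of the 8, with H3K27me3 at 5. MAEL, a piRNA pathway gene, had 2100 bp of H3K4me2 and 17788 bp of H3K27me3 within 5 kb. Neuronal genes had H3K4me2 in 14 of 30 and alone in 12 of the 14 (85.7%, 60.1 to 96.0), with H3K27me3 at 10. Of 30 interferon and antigen presentation genes 15 had both marks and 12 had H3K4me2 alone, 7 of these with H3K9ac, and the share with both was 50%. CIITA, the regulator of class II genes, had 10886 bp of H3K4me2 and 2400 bp of H3K4me3, while IFIT3, an interferon-induced gene, had 4547 bp of H3K4me2 and no H3K4me3. Liver genes had neither mark in 22 of 28. Zinc finger genes of the ZNF series had both marks in 316 of 509 and H3K4me2 alone in 64, which is 16.8% (13.4 to 20.9) of their H3K4me2 genes. Replication-dependent histone genes had both in 35 of 72 and H3K4me2 alone in 10, all 10 with H3K9ac and 0 with H3K27me3, and many of these short genes lie close enough to share regions.

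**Figure D5:**
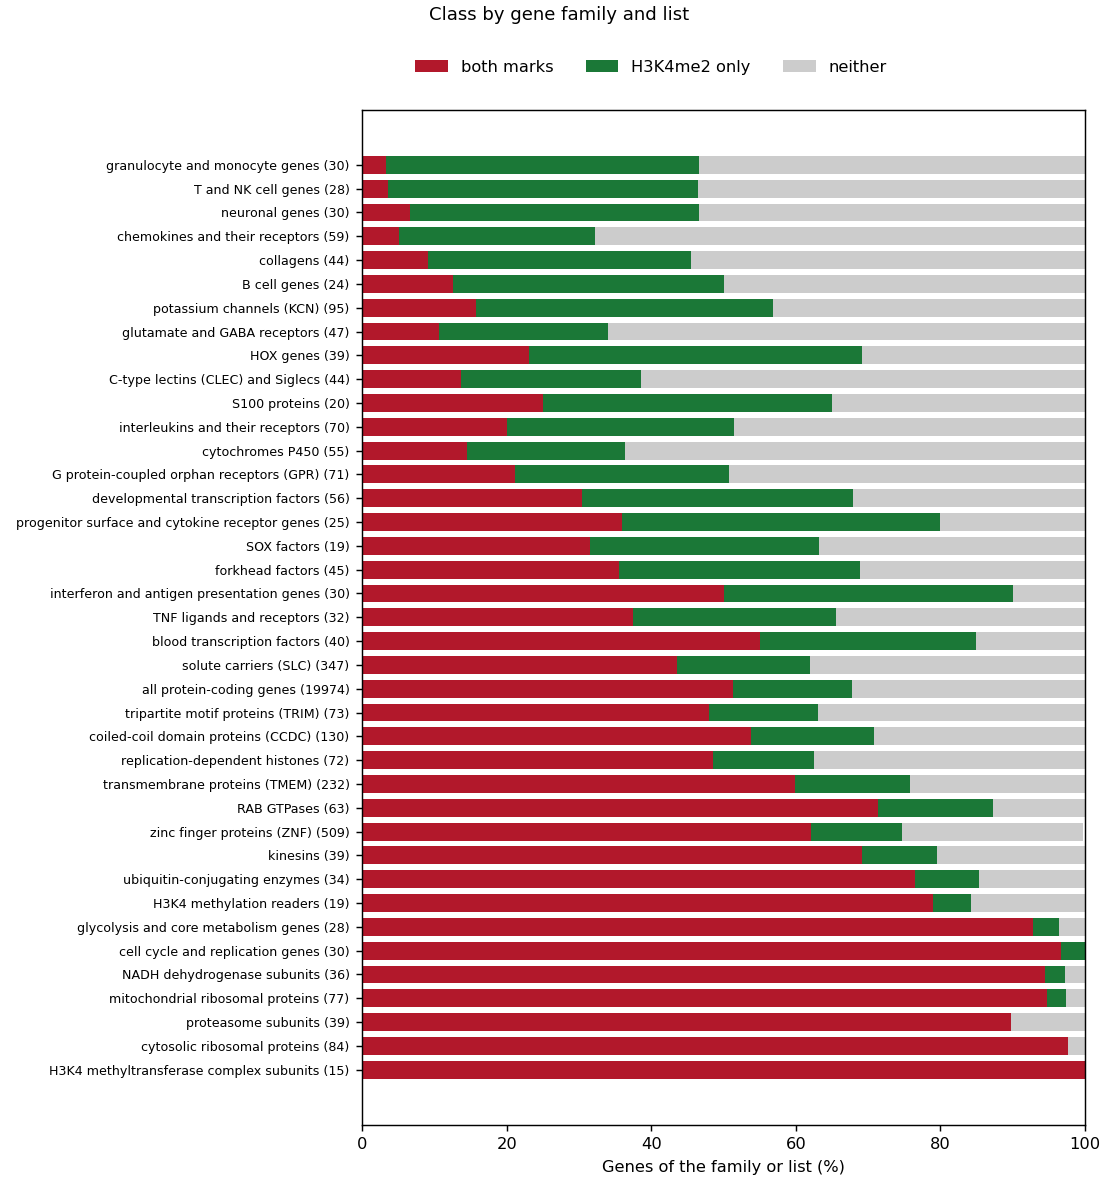
Share of the genes of each family or list (horizontal axis, percent, number of genes in parentheses) with both marks, H3K4me2 alone or neither, for the 38 families and lists with at least 15 genes and 12 H3K4me2 genes, ordered by the share of H3K4me2 genes without H3K4me3. Granulocyte and monocyte genes, at 92.9%, are at the top and the H3K4 methyltransferase complex subunits, at 0%, are among those at the bottom, with all genes at 24.3%.

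The 10 H3K4me2-only genes with the widest H3K4me2 region at an end had regions of 8400 to 12600 bp. PPP1R18, a regulatory subunit gene of protein phosphatase 1, had a region of 12600 bp and its nearest H3K4me3 at 1091 bp. CELA1, a pancreatic elastase gene, had 12150 bp, and CCR10 and its neighbour CNTNAP1 shared 10500 bp. ID3, an inhibitor of helix-loop-helix factors, had 9600 bp with 7200 bp of H3K4me1 and no H3K4me3 within 5 kb. SELPLG, the selectin ligand gene of leukocytes, had 9300 bp, LRRC32 9150 bp, LMO2 9000 bp, BCOR, a Polycomb-associated corepressor gene, 8550 bp and FKBP5 8400 bp. H3K4me1 lay within 5 kb of all 10 genes, H3K4me3 of 5 and H3K27me3 of 2. H3K4me3 lay within 5 kb of 17.4% of all H3K4me2-only genes and of 55.8% of all genes. For H3K4me1 and H3K27me3 only shares within 1 kb are given here, 36.1% and 52.3% of H3K4me2-only genes and 23.1% and 32.5% of all genes. The 10 genes were ranked by H3K4me2 width, so these counts describe them alone.

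The 8 genes with H3K4me3 and no H3K4me2 within 1 kb of an end included YY1, ZNF3, LOC107984142, TUBB6, ADAP1, DNLZ and NOTCH2. In 4 of those named H3K4me2 lay within 1257 bp of an end. YY1, a zinc finger transcription factor gene, had 4500 bp of H3K4me3 and 6300 bp of H3K4me2 within 5 kb, with H3K4me2 starting 1044 bp from the end. TUBB6, a tubulin gene, had it at 1032 bp, ZNF3 at 1077 bp and ADAP1 at 1257 bp. LOC107984142, DNLZ and NOTCH2 had no H3K4me2 within 5 kb, with 1500, 450 and 300 bp of H3K4me3.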

How the data were processed

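Chromatin immunoprecipitation sequencing was done on KBM-7 cells, with 1 library for each of 9 marks and 3 inputs. What the authors deposited is a list of intervals called per mark, each with its position and the name of its mark and with no count or score. The tools MACS, Bowtie2 and cutadapt and the assembly GRCh38 appear by name, without role or order, in the submitters' processing notes. Neither versions and thresholds nor the input behind each call are given there, and depth is unknown. Intervals of 1 further mark name fit none of the samples and were left aside.

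Starts counted from 0 or 1 were brought to 1 convention. Overlapping or adjacent intervals were joined per mark on chromosomes 1 to 22 and X. Genes and promoters came from RefSeq GRCh38.p14, and strand was known for 15812 of 19974 protein-coding genes (79.2%). None of the genes of chromosome 8 had a promoter there. Promoters inside another gene were not printed. Functions were tested on simulated regions, with 1254 of 1254 gene classes and 309 of 309 extents recovered. Python 3.11.15, pandas 2.3.3, scipy 1.17.1 and statsmodels 0.14.6 were used.

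Members, the 39 families and the 17 lists were chosen with earlier results of these data known. Genes were named by rule: per family or list up to 4 of each class with the most H3K4me2 within 5 kb, all members against the majority where 4 or fewer, and the 10 highest of each ranking. CCND2, SETD1A, BOD1, KDM1A, the globin genes, KIT, and the printed SYN2, GPR132 and UBE2J1 were picked with their values in view. The copy state of chromosome 8 and of the chromosome 15 stretch is general knowledge of the line. Some genes that the rule names are not reported here.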

Additional observations from a re-analysis of the deposited data

How the results depend on the processing

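No paired analysis was possible because each mark has 1 library. Of 11 alternatives 8 were planned, and 3 were chosen after seeing the data: as many H3K4me2 as H3K4me3 regions, any listed start, and no H3K4me3 within 5 kb or in the body. H3K9ac was more frequent in genes with both marks, and H3K27me3 in H3K4me2-only genes, under all 11. For joining gaps that outcome was fixed, as it cannot change which genes carry a mark. Genes with H3K4me3 alone numbered 72 with windows of 500 bp, 3 with 2.5 kb, 43 when at least 500 bp were required, 120 with regions at or above their mark's median width (wider regions), 0 among isolated genes (5 kb or more from any other gene), 2711 with as many H3K4me2 regions and 2 with any listed start. H3K4me2-only genes numbered 828 among isolated genes (with 1675 having both marks) and 1310 with as many H3K4me2 regions. The share of H3K4me2 genes without H3K4me3 was 25.7% with 500 bp windows, 29.6% with at least 500 bp, 39.5% with wider regions, 33.1% among isolated genes, 21.6% at the start alone, 14.8% with as many H3K4me2 regions, 20.5% with any listed start and 18.6% without H3K4me3 within 5 kb or in the body. In the same order H3K9ac was at 32.0%, 32.6%, 37.4%, 22.3%, 31.95%, 47.5% and, for the last, 26.8% of H3K4me2-only genes, and at 27.9% with 2.5 kb windows. H3K27me3 was at 47.65%, 44.0%, 30.45%, 65.1%, 44.4%, 41.6%, 50.1% and 59.4%, and at 57.1% with 2.5 kb. H3K4me1 was at 29.9%, 25.1%, 22.7%, 28.6%, 29.5%, 46.3%, 29.3% and 31.4%, and at 42.55% with 2.5 kb. H3K4me2 passed both edges of 62.5% of H3K4me3 regions with 2.5 kb windows, 49.8% with at least 500 bp, 45.9% with wider regions, 87.5% with gaps of up to 500 bp joined, 59.8% without chromosome 8 and the chromosome 15 stretch, 59.3% at the start alone, 38.15% with as many H3K4me2 regions and 59.9% with any listed start. The median extent was 1350 bp with wider regions and 1950 bp with gaps joined. Joining gaps could not change the 3 gene counts or the shares of genes with another mark, because each window is wider than any gap joined. The cause of the other shifts was not tested beyond the fewer genes or regions each leaves.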
